A study of Mus musculus with 10 samples.

Results

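The cytosolic translation elongation factors eEF1 and eEF2 were followed at the transcript level in pancreatic islets of C57BL/6 mice. The set holds 7 genes, taken by symbol from the 24475 genes of the table: Eef1a1, Eef1a2, Eef1b2, Eef1d, Eef1g, Eef2 and Eef2k. One group of mice was given REGN1193, a blocking antibody against the glucagon receptor (GCGR), and the other an isotype control antibody, with 5 libraries per group and numbers 1 to 5 and 6 to 10 in the labels. Islets were purified on a Histopaque gradient and libraries were made from polyA RNA with the Nextera XT kit, which keeps no strand information. Dose, duration, age, sex and batch are not in the labels, nor is it said whether libraries stand for separate animals, so the p-values speak of the spread among the libraries alone, which may be technical. The family was chosen by the measured rise of Eef1a2 in this same comparison, and the values of Eef1a2 in it are therefore given as a description.

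During elongation, eEF1A in its GTP form brings aminoacyl-tRNA to the ribosome, and the eEF1B complex reloads it with GTP. The complex has the exchange subunits encoded by Eef1b2 and Eef1d and a scaffold subunit encoded by Eef1g. eEF2 then moves the ribosome along the mRNA by a codon, and the kinase encoded by Eef2k slows this step by phosphorylating eEF2. Mammals have a pair of eEF1A isoforms from separate genes: Eef1a1 is active in nearly all tissues, while Eef1a2 is known mainly from adult neurons, heart and skeletal muscle, and its loss causes the wasted phenotype in mice. The mRNAs of eEF1A, eEF1B and eEF2 belong, with those of ribosomal proteins, to the class whose translation depends on mTORC1.

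The isoform genes lie apart in GRCm38.p6, Eef1a2 (Entrez 13628) on chromosome 2 from 181141758 to 181157015 and Eef1a1 (Entrez 13627) on chromosome 9 from 78478453 to 78481724. Their coding sequences were compared because the reads of close paralogs can be mixed up. Aligned end to end, the coding regions of 1392 and 1389 bases (GENCODE M21, stop codon included) were 80.0% identical, and the longest run of identical bases was 23. The first 60 coding bases are shown with the bases that differ between the isoforms in capitals.
Eef1a2: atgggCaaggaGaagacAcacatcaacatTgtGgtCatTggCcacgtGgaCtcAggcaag
Eef1a1: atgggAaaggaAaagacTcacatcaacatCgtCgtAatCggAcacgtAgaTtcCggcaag
The 60 coding bases around the longest shared run, positions 285 to 344 of each coding region, are shown in the same way.
Eef1a2: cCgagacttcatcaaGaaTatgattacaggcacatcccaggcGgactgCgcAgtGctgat
Eef1a1: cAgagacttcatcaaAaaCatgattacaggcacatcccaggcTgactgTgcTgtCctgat
The last coding bases before the stop codon are less alike, with 17 of the aligned positions differing, 3 of them a gap in Eef1a1.
Eef1a2: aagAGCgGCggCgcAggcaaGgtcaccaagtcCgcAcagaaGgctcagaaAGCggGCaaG
Eef1a1: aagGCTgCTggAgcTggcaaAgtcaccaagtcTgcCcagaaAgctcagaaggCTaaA
Isoform differences are thus scattered through the coding region, and no window of 50 bases of the Eef1a2 transcript occurred in the transcript of any other gene of GENCODE M21. In contrast, 60.6% of the 50-base windows of the Eef1a1 transcript occurred in other genes, 21 in number, of which 18 are annotated as pseudogenes. For Eef1g the share was 64.3%, over 5 pseudogenes. It was 17.3% for Eef1d, 7.86% for Eef2, 5.98% for Eef1b2 and 1.07% for Eef2k. The few such windows of Eef2k occurred in 552 genes, of which 399 were measured here, with a summed mean of 3437 RPKM. Their part in the level of Eef2k was not tested. How the authors' counting treated reads shared between genes is not known, and the levels of Eef1a1 and Eef1g are less certain as single genes for that reason. In RefSeq, the span of Eef1d also overlaps that of Tigd5 (a mean of 0.549 RPKM). The span of Eef2k overlaps those of the long noncoding RNA genes Gm36449 and Gm15774. Where exons coincide, reads could not be told apart without strand, and whether they coincide was not examined.

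The 250 bases before the RefSeq start of each isoform gene are shown as the sequence context of a pair of genes whose levels were far apart, with the 6 letters GGGCGG (a GC box, either strand) in capitals. The window of Eef1a2 is chr2:181157016-181157265 and that of Eef1a1 is chr9:78481725-78481974, both on the minus strand of GRCm38.p6.
Eef1a2: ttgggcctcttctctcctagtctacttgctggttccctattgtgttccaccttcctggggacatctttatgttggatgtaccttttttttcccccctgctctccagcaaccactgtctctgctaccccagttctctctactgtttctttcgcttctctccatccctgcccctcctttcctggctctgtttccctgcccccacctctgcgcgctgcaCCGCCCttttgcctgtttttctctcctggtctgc
Eef1a1: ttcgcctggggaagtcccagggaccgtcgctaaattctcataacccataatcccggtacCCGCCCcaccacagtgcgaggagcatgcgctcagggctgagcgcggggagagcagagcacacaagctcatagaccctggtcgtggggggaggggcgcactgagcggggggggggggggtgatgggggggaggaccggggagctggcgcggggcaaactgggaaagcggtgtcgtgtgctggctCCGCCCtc
The Eef1a2 window is made of C and T to 76.8%, more than in 99.9% of 32851 RefSeq promoter windows of the same length (median 50%). The Eef1a1 window holds 40.4% C and T. It has 18 CpG pairs, against 4 in the Eef1a2 window and a median of 6 over all windows. Both hold GGGCGG, as do 32.7% of all windows. Neither holds TATAAA (12.4% of all windows) or TAATTA (4.84%) on either strand, which says only that these letters are not in these windows.

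Depth, estimated from the steps of the low values, ran from 14.6 to 18.1 megareads in the antibody libraries and from 12.4 to 14.95 megareads in the isotype libraries. Values are RPKM, reads per kilobase of transcript and per megaread of depth, so that levels of different genes can be set side by side. All 7 members averaged 0.5 RPKM or more and so entered the test, which covered 13450 genes. Each library was islet-like: the summed RPKM of 10 beta cell markers ran from 199240 to 356500 in the antibody libraries and from 298697 to 472690 in the isotype libraries. Acinar markers were present in every library, with a summed level of 9 genes from 3404 to 10491 RPKM in the antibody libraries and from 2808 to 15472 RPKM in the isotype libraries.

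The members' levels ranged from among the most abundant transcripts of the islet to scarce. Eef1a1 ranked 23 among all genes by mean RPKM, Eef2 ranked 98, Eef1b2 213, Eef1g 267, Eef1d 1145, Eef1a2 2666 and Eef2k 10330. Within each group the ranges of Eef1b2 and Eef1g overlapped. Library by library, Eef1b2 was the higher of the pair in 5 of 5 antibody libraries, while Eef1g was higher in 2 of 5 isotype libraries. The ranges of Eef1d and Eef1a2 overlapped with the antibody, where Eef1a2 was the higher of the pair in 2 of 5 libraries, but not with the isotype control, where Eef1a2 was lower in all. The other neighbours in this order did not overlap in either group.

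**Figure D1:**
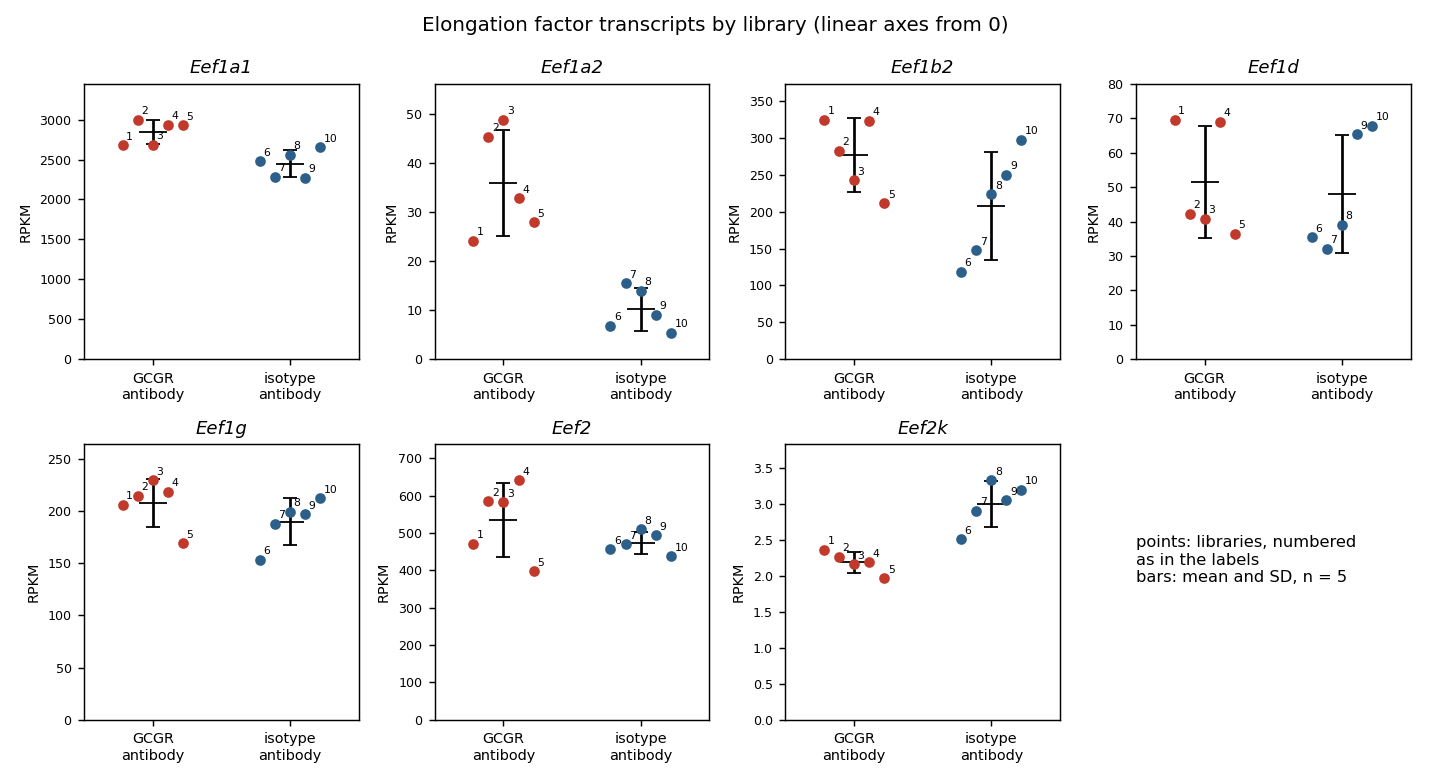
RPKM of the 7 elongation factor genes in each library, GCGR antibody on the left and isotype antibody on the right of each panel, with linear axes from 0; points are libraries with their label number and bars give mean and SD (n = 5). The groups are apart for Eef1a2, Eef1a1 and Eef2k and overlap for Eef1b2, Eef1d, Eef1g and Eef2.

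Eef1a2, the tissue-restricted isoform of eEF1A, stood at 24.2, 45.4, 48.9, 32.8 and 28.0 RPKM in antibody libraries 1 to 5, against 6.77, 15.5, 13.96, 9.05 and 5.39 RPKM in isotype libraries 6 to 10. The lowest antibody library exceeded the highest isotype library, and the groups did not overlap. The means were 35.9 ± 10.8 RPKM under the antibody and 10.1 ± 4.44 RPKM under isotype (n = 5 each, SD), a ratio of 3.54. On the log2(RPKM + 0.5) scale the difference was 1.83 (SE 0.29), rank 8 of all tested genes from the highest down. An estimated 849 to 1610 reads in the antibody libraries and 144 to 433 in the isotype libraries lay behind these values. Passing the threshold of limma, an adjusted p under 0.05 over all tested genes, is what brought Eef1a2 and with it the family into view, and nothing further is read from that call. The call was lost in 6 of 22 alternative settings: with no filter on low values (limma adjusted p = 0.118), with the acinar level as a covariate (0.0622), without antibody replicate 5 and isotype replicate 10 together (0.0502), and without antibody replicate 2 (limma adjusted p = 0.0590), antibody replicate 3 (0.0557) or isotype replicate 9 (0.0574). The log2 difference in these settings lay between 1.70 and 1.83.

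Eef1a1, the general isoform, stood at 2681, 3002, 2686, 2936 and 2933 RPKM in antibody libraries 1 to 5, against 2481, 2286, 2560, 2275 and 2652 RPKM in isotype libraries 6 to 10. The lowest antibody library lay just above the highest isotype library, so the groups were apart by a narrow margin. The means were 2848 ± 152 RPKM under the antibody and 2451 ± 167 RPKM under isotype (n = 5 each, SD), a log2 difference of 0.22 (SE 0.13) that missed the threshold (limma adjusted p = 0.805) and turned to -0.19 under quantile normalization. As a share of the summed RPKM of each library, Eef1a1 took 0.364% ± 0.0293 under the antibody and 0.304% ± 0.0394 under isotype (n = 5 each, SD), and on that scale the groups overlapped.

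Taken as one eEF1A pool, the isoforms together held 2884 ± 153 RPKM under the antibody and 2461 ± 165 RPKM under isotype (n = 5 each, SD). Eef1a2 supplied 0.894%, 1.49%, 1.79%, 1.11% and 0.945% of that pool in antibody libraries 1 to 5. In isotype libraries 6 to 10 it supplied 0.272%, 0.675%, 0.543%, 0.396% and 0.203%. The mean share was 1.24% ± 0.383 under the antibody and 0.418% ± 0.193 under isotype (n = 5 each, SD), without overlap. Even in the antibody libraries Eef1a1 was the more abundant isoform by 54.9-fold to 110.9-fold, against 147.2-fold to 491.7-fold in the isotype libraries. In whole islets a transcript averaged over all cells does not show the isoform balance of a single cell type.

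Eef1b2, an exchange subunit of eEF1B (Entrez 55949, chromosome 1 from 63176831 to 63180486), stood at 325, 283, 243, 324 and 212 RPKM in antibody libraries 1 to 5, against 119, 148, 224, 250 and 298 RPKM in isotype libraries 6 to 10. The groups overlapped, with isotype libraries 6 and 7 below all others. The means were 277 ± 49.97 RPKM under the antibody and 208 ± 73.8 RPKM under isotype (n = 5 each, SD), a log2 difference of 0.48 (SE 0.24, limma adjusted p = 0.756). The log2 difference was 0.29 without isotype replicate 6 and 0.63 without isotype replicate 10.

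Eef1d, the other exchange subunit (Entrez 66656, chromosome 15 from 75894796 to 75909784), had 69.7, 42.3, 40.8, 69.0 and 36.4 RPKM in antibody libraries 1 to 5, against 35.4, 32.1, 39.1, 65.5 and 67.8 RPKM in isotype libraries 6 to 10. In each group 2 libraries stood near 65 to 70 RPKM and 3 near 32 to 42 RPKM, antibody libraries 1 and 4 and isotype libraries 9 and 10 being the high ones. The log2 difference between groups was 0.12 (SE 0.26, limma adjusted p = 0.955), and it lay between -0.0040 and 0.263 with 1 library left out. Eef1g, the scaffold subunit (Entrez 67160, chromosome 19 from 8967041 to 8978180), varied least of the eEF1B genes, with 206, 214, 229, 218 and 169 RPKM in antibody libraries 1 to 5, against 153, 188, 199, 197 and 212 RPKM in isotype libraries 6 to 10. Its log2 difference was 0.13 (SE 0.12, limma adjusted p = 0.879), with 0.054 without isotype replicate 6 and 0.20 without antibody replicate 5. The groups overlapped in part, antibody libraries 2, 3 and 4 lying above all isotype libraries and isotype library 6 below all antibody libraries.

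Eef2, the translocase (Entrez 13629, chromosome 10 from 81176631 to 81182509), had 471, 586, 583, 641 and 397 RPKM in antibody libraries 1 to 5, against 457, 469, 510, 494 and 437 RPKM in isotype libraries 6 to 10. The antibody libraries held both the highest values and, in library 5, the lowest. The means were 536 ± 98.9 RPKM under the antibody and 473 ± 29.1 RPKM under isotype (n = 5 each, SD), a log2 difference of 0.16 (SE 0.14, limma adjusted p = 0.870). It was 0.089 without antibody replicate 4 and 0.26 without antibody replicate 5.

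Eef2k, the kinase that phosphorylates eEF2 (Entrez 13631, chromosome 7 from 120842642 to 120907219), was the scarcest member and the 1 with a negative difference. It stood at 2.37, 2.27, 2.16, 2.19 and 1.97 RPKM in antibody libraries 1 to 5, against 2.51, 2.91, 3.33, 3.05 and 3.20 RPKM in isotype libraries 6 to 10. Every antibody library lay below every isotype library. The means were 2.19 ± 0.147 RPKM under the antibody and 3.002 ± 0.315 RPKM under isotype (n = 5 each, SD), a ratio of 0.730. The log2 difference of -0.38 (SE 0.11) missed the threshold (limma adjusted p = 0.327), and it was negative in all 21 alternative settings in which Eef2k was tested, from -0.43 to -0.30. An estimated 210 to 263 reads in the antibody libraries and 210 to 326 in the isotype libraries lay behind these values. The ratio of Eef2 to its kinase was 199, 258, 269, 293 and 202 in antibody libraries 1 to 5, against 182, 161, 153, 162 and 136 in isotype libraries 6 to 10, again without overlap. Eef2k alone was already apart between the groups while Eef2 overlapped, so nothing further is read from the ratio. These are transcript levels and say nothing of the phosphorylation of eEF2.

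**Figure D2:**
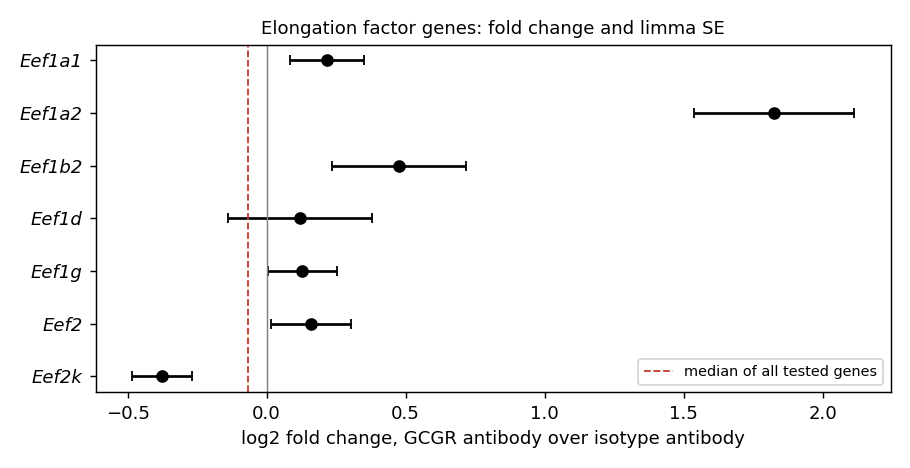
Log2 fold change of each member, GCGR antibody over isotype antibody, on the log2(RPKM + 0.5) scale, with limma's standard error as the bar; the dashed line is the median of all tested genes at -0.07. Eef1a2 lies at 1.83, the eEF1B genes, Eef1a1 and Eef2 between 0.12 and 0.48, and Eef2k at -0.38.

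Over the set, 1 of 7 members was called by limma, Eef1a2, and it was higher under the antibody. Of all tested genes 0.409% were called, 0.394% as higher and 0.0149% as lower. In 3 of 7 the groups did not overlap, Eef1a2 and Eef1a1 being higher and Eef2k lower under the antibody. This held for 1.99% of all tested genes, 1.14% as higher and 0.84% as lower. Because the family was picked with this comparison in view, nothing is read from either count.

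Eef1a2 was set beside the genes of the alpha cell, the glucagon-producing cell type that is known to expand in mice under GCGR blockade. Of 13 alpha cell markers 11 were tested, 8 of them passed as higher with the antibody and none as lower, with a median log2 difference of 1.16. The summed RPKM of all 13 ran from 55241 to 84317 in the antibody libraries and from 10244 to 18223 in the isotype libraries, and no marker was at 0 in every library. Several alpha cell genes were known to rise in these libraries when the list was drawn up. Markers of other endocrine cells were measured beside them. Of 5 delta cell markers, 4 had a positive difference (median log2 difference 0.48), among them Sst, the gene of somatostatin, at 0.92 (SE 0.33, limma adjusted p = 0.544). Both PP cell markers were also positive (median 0.72), all 10 beta cell markers were negative (median -0.34), and no marker of these 3 lists was called. Over the 10 libraries the log2 level of Eef1a2 had a Pearson r of 0.96 with the log2 summed RPKM of the alpha cell markers, 0.91 with that of the delta cell markers and 0.83 with that of the PP cell markers, the difference between the groups being part of each. The alpha cell sum was mostly Gcg and the delta cell sum mostly Sst, so these r values speak largely of those genes. In whole islets, more cells of a type and more RNA per cell cannot be told apart.

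The mean log2 level of the 11 tested alpha cell genes was 5.68 ± 0.10 under the antibody and 4.395 ± 0.29 under isotype (n = 5 each, SD), a difference of 1.29. The log2 level of Eef1a2 minus this mean was -0.94, -0.31, -0.09, -0.58 and -0.84 in antibody libraries 1 to 5, against -1.47, -0.70, -0.84, -0.90 and -1.53 in isotype libraries 6 to 10. Relative to the mean of these genes Eef1a2 was thus higher by 0.54 with the antibody, and the groups overlapped. The log2 differences of the 11 genes ran from 0.30 to 2.77, the highest being that of Ttr. The value of 0.54 therefore depends on the make-up of the list. Without Gcg in the mean the difference was 0.65. Against Gcg alone, the gene of proglucagon, it was -0.57, since the log2 difference of Gcg was 2.39 (SE 0.27).

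**Figure D3:**
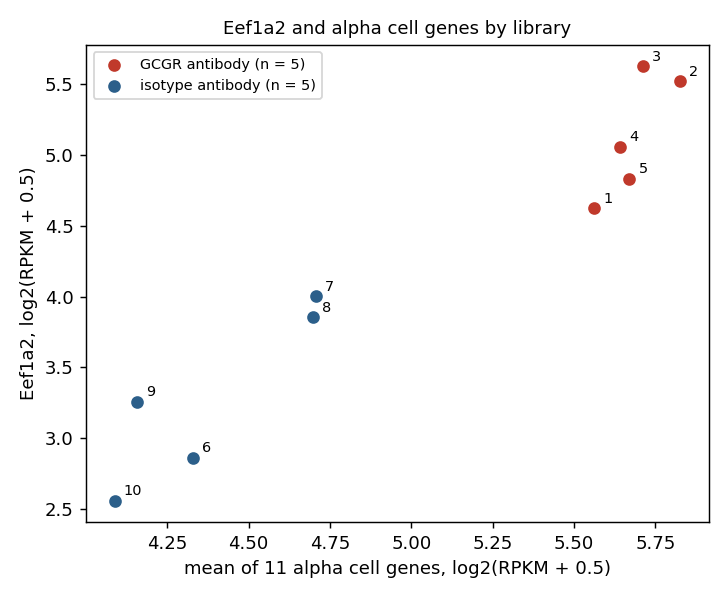
Log2(RPKM + 0.5) of Eef1a2 on the vertical axis against the mean of 11 alpha cell genes on the horizontal axis, each point a library with its label number (5 per group). The antibody libraries lie above and to the right of all isotype libraries, and within each group libraries high for the alpha cell genes (2 and 3, and 7 and 8) are those high for Eef1a2.

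Other cell types in which Eef1a2 is known to be active were checked by their markers. Of 8 skeletal and heart muscle markers, 7 had a mean below 0.5 RPKM, and the summed level of all 8 ran from 0.870 to 1.62 RPKM in the antibody libraries and from 0.771 to 8.61 RPKM in the isotype libraries. None was at 0 in every library. Of 7 neuronal markers, Rbfox3 and Elavl3 had a mean below 0.5 RPKM, and the sum of all 7 ran from 141 to 226 RPKM in the antibody libraries and from 137 to 180 RPKM in the isotype libraries. The neuronal sum was carried by Snap25 and Map2, which endocrine cells of the islet also express. None of the tested markers of either list passed.

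Among the 8384 genes averaging 5 RPKM or more, those whose log2 levels over the 10 libraries were most like those of Eef1a2 included Irx2 (Pearson r = 0.99), Dpp6 (0.98), the artemin receptor gene Gfra3 (0.98), the secreted glutathione peroxidase gene Gpx3 (0.97), Gcg (0.95), Ttr (0.95) and 1700086L19Rik (0.95). These r values are descriptions, and the difference between the groups is part of each. All of these were called higher with the antibody, and Irx2, Gcg and Ttr are on the alpha cell list. Irx2, an Iroquois homeobox transcription factor gene of alpha cells, was at 8.92 ± 1.89 RPKM under the antibody and 3.71 ± 0.854 RPKM under isotype (n = 5 each, SD). Dpp6, an auxiliary subunit of voltage-gated potassium channels, was at 8.004 ± 0.999 RPKM in antibody libraries and 4.13 ± 0.699 RPKM in isotype libraries (n = 5 each, SD).

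When each library was expressed as its deviation from the mean of its own group, which removes the difference between groups, the genes most like Eef1a2 included Med25 (r = 0.97), Irx2 (0.97), Dopey2 (0.96), Pigt (0.96), Tmem184b (0.96), Dcakd (0.96) and Fkbp1a (0.95). Irx2 was named by both measures and was the 1 gene of this second group that was called. With 10 libraries and 8384 genes, these names carry no test. By the same measure the 3 genes most like each of the other members were Tmsb4x, Spata6 and Zfp51 for Eef1a1, Rap1gds1, Rnaseh2c and Pdf for Eef1b2, and Gnpat, Kansl2 and Ndfip2 for Eef1d. For Eef1g they were Tmbim1, Ssr4 and Cdc42se1, for Eef2 Sdhaf1, Amdhd2 and Bloc1s1, and for Eef2k 2610524H06Rik, Pdcd6 and Ralb. Their r lay between 0.84 and 0.98, and none of these 18 genes was called.

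**Figure D4:**
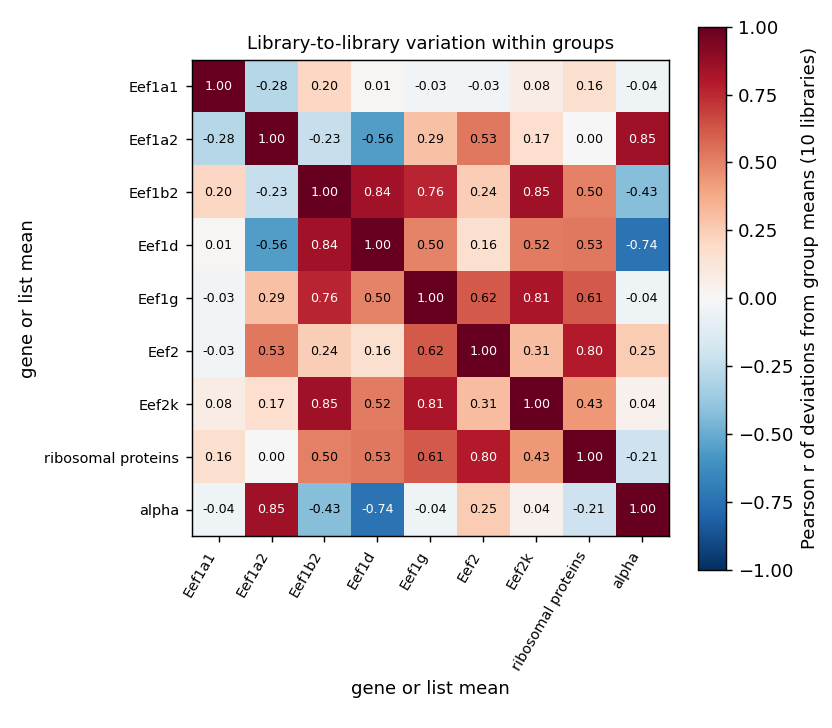
Pearson r between members, the mean of 82 ribosomal protein genes and the mean of 11 alpha cell genes, computed on deviations of log2(RPKM + 0.5) from the group means over 10 libraries; red is positive, blue negative, and values are printed in the cells. Eef1a2 runs with the alpha cell mean (0.85), and Eef1b2 runs with Eef1d (0.84), Eef2k (0.85) and Eef1g (0.76).

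Within the groups the members did not all vary together. Eef1a2 followed the alpha cell mean (r = 0.85 on deviations from the group means, Spearman's rho 0.85, and r = 0.71 without the 2 libraries farthest from the median of Eef1a2). Without those 2 libraries its r was 0.87 with the mean of the ductal markers (0.47 with all libraries), 0.69 with Eef1g (0.29) and 0.61 with Eef2 (0.53), so the alpha cell mean did not stand apart in that setting. Eef1a1 followed none of the other members, with r between -0.28 and 0.20, while its r with the mean of the acinar markers was 0.60 (rho 0.54, and 0.56 without the 2 farthest libraries). With the acinar level as a covariate its log2 difference was 0.26. Eef1b2 and Eef1d had nearly the same order of libraries (r = 0.84, rho 0.96, and 0.86 without the 2 farthest libraries). Against the alpha cell mean Eef1d ran the other way (r = -0.74, rho -0.72, and -0.53 without the 2 farthest libraries). For Eef1b2 and Eef2k r was 0.85 (rho 0.76, and 0.73 without the 2 farthest libraries). Eef1b2 and Eef1g had r = 0.76 (rho 0.67), and 0.65 without the 2 farthest libraries. For Eef1g and Eef2k the value was 0.81 (rho 0.54) but 0.09 without the 2 farthest libraries, so it rested on those. Eef2 followed the mean of the ribosomal protein genes at 0.80 (rho 0.83). Without the 2 farthest libraries this r became 0.30, so its size depended on those, although rho over all 10 libraries was not lower than r. Antibody library 5 was lowest in its group for Eef2, Eef1b2, Eef1d, Eef1g and Eef2k alike, and its ribosomal protein mean was 8.08 on the log2 scale, where the other antibody libraries had 8.51 to 8.67. The part of that library in the members' differences was measured by leaving it out, which gave log2 differences of 0.26 for Eef2, 0.20 for Eef1g, 0.23 for Eef1d, 0.57 for Eef1b2, -0.35 for Eef2k and 1.90 for Eef1a2. Those of Eef2, Eef1g and Eef1d were thereby over 1.5 times as large as with all libraries. The libraries also differ in depth and in acinar marker level, and the part of depth in these r values was not tested.

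Other genes of translation were taken as 6 lists, and none of the lists held a gene called in either direction. Since only 0.409% of all tested genes were called, lists of this size say little by holding none. Of 82 tested cytosolic ribosomal protein genes, 65 had a positive difference, with a median log2 difference of 0.10 against -0.07 over all tested genes. The count was 63 with quantile normalization, 74 with trimmed mean scaling and 77 with median centring. The 2 with the smallest p were Rpl19 (log2 difference 0.36, SE 0.12, limma adjusted p = 0.455) and Rps6 (0.25, SE 0.11, limma adjusted p = 0.704). Of 42 initiation factor genes 33 had a negative difference, with a median of -0.08, where 8938 of the 13450 tested genes were negative with a median of -0.07. The count was 27 with quantile normalization and 24 with trimmed mean scaling or median centring. Eif4b, a cofactor of the eIF4A helicase, was the 1 gene of those 42 without overlap. The groups were apart for 1.99% of all tested genes, so nothing is read from that count. Eif4b was at 86.4 ± 9.36 RPKM under the antibody and 72.6 ± 2.54 RPKM under isotype (n = 5 each, SD). Its log2 difference was 0.24 (SE 0.10, limma adjusted p = 0.649). Eif2a was at 35.5 ± 5.86 RPKM in antibody libraries and 28.9 ± 1.87 RPKM in isotype libraries (n = 5 each, SD; log2 difference 0.28, SE 0.12, limma adjusted p = 0.654).

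Among 23 partners and modifying enzymes of the elongation factors, such as the diphthamide enzymes that modify eEF2 and the methyltransferases that act on eEF1A, 22 had a negative difference, with a median of -0.13. That count was 17 with quantile normalization, 16 with trimmed mean scaling and 15 with median centring. Those with the smallest p were Mettl10, an eEF1A lysine methyltransferase (log2 difference -0.20, SE 0.10, limma adjusted p = 0.766), and Dhps, which starts hypusine formation on eIF5A (-0.36, SE 0.21, limma adjusted p = 0.782). Of 20 regulators of eEF2 kinase, among them calmodulin, AMPK and mTORC1 genes, 13 had a negative difference, with a median of -0.08 that was near 0 under quantile normalization, where the list split into 10 and 10. Ppp2cb, a catalytic subunit of protein phosphatase 2A, was at 26.7 ± 2.45 RPKM under the antibody and 32.2 ± 2.23 RPKM under isotype (n = 5 each, SD; log2 difference -0.26, SE 0.10, limma adjusted p = 0.552), and the kinase gene Mapkapk2 had a log2 difference of -0.28 (SE 0.14, limma adjusted p = 0.764).

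The 8 termination and recycling genes had a median log2 difference of -0.08, with Pelo, a ribosome rescue factor, at -0.24 (SE 0.20) and Gspt2, a release factor GTPase, at 0.10 (SE 0.12). The 6 mitochondrial elongation genes had a median of -0.12, with Tsfm, the exchange factor of the mitochondrial EF-Tu, at -0.42 (SE 0.16, limma adjusted p = 0.597) and Gfm2, the mitochondrial recycling factor, at -0.20 (SE 0.16). The members of all these lists ran from -0.99 for Rpl30 to 0.38 for Pabpc1. The log2 difference of 1.83 of Eef1a2 lay outside that range. Because Eef1a2 brought the family into view by its rise in this same comparison, nothing is read from that.

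**Figure D5:**
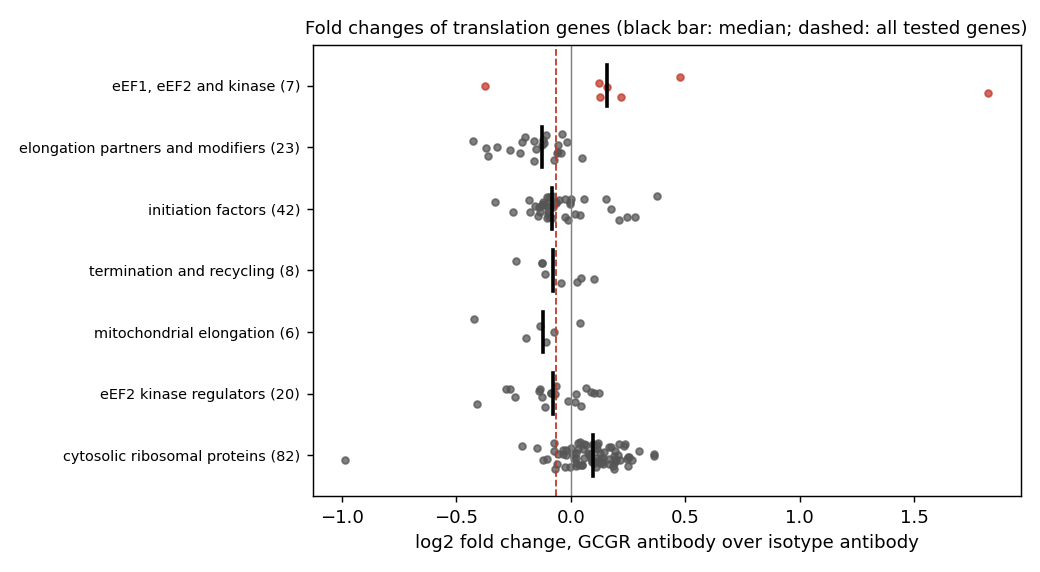
Log2 fold change, GCGR antibody over isotype antibody, of the 7 elongation factor members (red, top row) and of 6 lists of other translation genes (grey), each point a tested gene, with list sizes in brackets; black bars are list medians and the dashed line is the median of all tested genes at -0.07. All list genes lie between -0.99 and 0.38, and Eef1a2, whose rise in this comparison brought the family into view, lies at 1.83.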

How the data were processed

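The authors deposited 1 table of RPKM values for 24475 genes in 10 libraries. The submitters' processing notes name GRCm38, mm10, CASAVA 1.8.2 and FastQC, without roles; for aligner, counter and annotation nothing is given in the sources used here. Members and lists were chosen with earlier results of these data known. RPKM was used unscaled as log2(RPKM + 0.5), which understates changes near 0.5 RPKM. The 13450 genes averaging 0.5 RPKM or more entered a fit by limma 3.58.1 (R 4.3.3; variance trend, Benjamini-Hochberg over all tested genes, threshold 0.05). On simulated data from these 13450 genes, 5 against 5, the share of changed genes called was 35.2% at 1.5-fold, 78.1% at 2-fold and 95.2% at 4-fold. In each of 10 draws 200 genes were changed, up or down at random, with normal noise drawn independently for each gene. Variation shared between genes, such as that of antibody library 5, was not simulated, so the shares may differ for these libraries. Depth came from the spacing of low values of genes with a single transcript length, where 68.4% to 72.6% of values lay within 0.1 of a whole read, so no count model was fitted. Approximate reads use 1 transcript length per gene (GENCODE M21). Named genes were all members, the 8 genes most like Eef1a2 by each measure, the 3 most like each other member, and in each list all called genes and the 2 with the smallest p; Rpl30, Pabpc1, Snap25, Map2, Rbfox3 and Elavl3 were named after their values were seen. Some genes that this rule selects are not reported here. Promoter sequences are RefSeq's for GRCm38.p6, with entries for 5 of 7 members; coding sequences are from GENCODE M21, aligned with Biopython 1.88. List counts under other scalings were added after the data were seen. Alternatives were pseudocounts, filters, scalings, covariates, weights and leaving out libraries. Python 3.11.15 was used.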

Additional observations from a re-analysis of the deposited data

How the results depend on the processing

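No paired analysis was possible because the groups share no replicate numbers in the labels. The log2 difference of Eef1a2 stayed positive in all 22 alternatives, from 1.64 to 2.08 (limma adjusted p from 0.00379 to 0.118; main 0.0158). Its call, and with it the only call among the 7 members, was lost in 6, leaving 0 members called. These were no filter on low values (1.83, limma adjusted p = 0.118), the acinar level as a covariate (1.78, 0.0622), omitting antibody replicate 5 with isotype replicate 10 (1.71, 0.0502), and 3 single omissions. With 1 library left out the log2 difference ran from 1.64 to 1.999 and the members called from 0 to 1. The cause of these losses was not tested. The eEF1A share of Eef1a2 differed by 0.827 percentage points between groups, from 0.691 to 0.914 with 1 library left out. Eef1a2 relative to the alpha cell mean differed by 0.54, from 0.42 to 0.64 with 1 library left out, and by -0.57 against Gcg alone. Eef1a1 turned to -0.19 with quantile normalization. Eef1d turned to -0.035 with the acinar covariate, and ran from -0.0040 to 0.263 with 1 library left out, the lowest without isotype replicate 7. In the same omissions Eef1g ran from 0.054 to 0.20 and Eef2 from 0.089 to 0.26. No call of Eef1a1, Eef1b2, Eef1d, Eef1g, Eef2 or Eef2k was gained in any alternative; Eef2k came closest with array weights (-0.37, limma adjusted p = 0.0636) and was not tested at a minimum mean of 5 RPKM. Over all genes 53 were called higher and 2 lower, against 121 and 61 with array weights, 23 and 0 at a minimum mean of 5 RPKM, 36 and 0 without antibody replicate 1, 32 and 1 without antibody replicate 2 or 3, 31 and 1 without isotype replicate 9, and 40 and 20 without isotype replicate 6. Only 35.2% of simulated 1.5-fold changes were recovered, so missed calls for the smaller differences of the other members do not show that they were unchanged.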
